A study of Mus musculus with 6 samples.

Results

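The 31 genes described here encode the enzymes that remove peroxides and superoxide, the glutathione and thioredoxin systems that supply them, the ferritins, and the regulator pair Nrf2 (Nfe2l2) and Keap1. They were chosen by symbol and role, with no threshold on a measured value but with earlier results of these data known, and all 31 were found among the 27179 gene IDs of each count file. RNA-seq counts came from satellite cells, the resident stem cells of skeletal muscle, sorted from muscle of wild-type C57Bl/6N mice. High-fat diet and chow diet groups held 3 libraries each, with at least 50000 cells sorted per replicate and 75-bp single reads. The series set satellite cells of obese mice beside those of lean mice. Feeding time and age are not given in the sources used here, nor whether a replicate is an animal or a pool. The p-values therefore measure only how far these libraries scatter, and that scatter may be technical.

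Nrf2 is a transcription factor that Keap1 holds in the cytoplasm and hands to a ubiquitin ligase. Electrophiles and oxidants modify cysteines of Keap1, and Nrf2 then pairs with a small Maf protein on antioxidant response elements near genes for glutathione synthesis, NADPH supply and thioredoxin reduction. In muscle stem cells this system is known for its part in keeping quiescent cells viable and in tuning the redox changes of activation.

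Gene counts summed to between 14930394 and 18217818 per library. The 12 satellite cell markers were all detected and summed to 4578 to 5620 counts per 1000000 (CPM, with TMM scaling) under the high-fat diet and 5006 to 5892 CPM under chow. Of these 12, 0 passed the test over all genes (edgeR). All 12 had means above 50 CPM. The groups did not overlap for 4, where they did not for 15.3% of all genes tested and 24.7% of those with a mean of at least 50 CPM. These 4 were Pax7 (234 ± 57.3 and 402 ± 29.8 CPM, SD, n = 3 each, unadjusted p = 0.00143, adjusted p = 0.180 in edgeR) and Fgfr4 at lower and Itga7 and Chrdl2 at higher values under the high-fat diet. Their part in the results below was not tested. Of 10 macrophage and leukocyte markers, 2 (Adgre1 and C1qa) had no count in any library. Ptprc, C1qb and Itgam reached at most 0.377, 0.0574 and 0.576 CPM, and Csf1r, Cd14 and Cd74 at most 7.72, 8.57 and 8.66 CPM. Cd68 and Lyz2 reached the highest values, running from 6.31 to 31.01 CPM and from 0 to 17.5 CPM. The means of Cd68 and Lyz2 were lower under the high-fat diet, and those of Csf1r, Cd14 and Cd74 were not. The groups overlapped for each of these markers. High-fat diet library 1 and chow library 3 differed more from each other than any other pair of libraries did (chi-square of 140.3 per degree of freedom over genes), and the comparison was also fitted without them. The members called then numbered 0, but only 1 of all genes was called in that fit, so this count could hardly have differed. The median log2 fold change of the members was -0.13.

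No member passed the test for a difference between the diets. Of the 31, Gsta1 and Gsta2 had no count in any library and the other 29 passed the filter on low counts. In edgeR's quasi-likelihood test 0 of 29 passed a Benjamini-Hochberg adjusted p of 0.05 over all 13202 genes tested, against 34 genes (0.258%) over the whole table, 0.0909% higher and 0.167% lower under the high-fat diet. The count was also 0 with DESeq2, with limma-voom and with limma-voom under sample quality weights. With no filter on low counts 1 member, Hmox1, passed (adjusted p = 0.000212 in edgeR), in a fit where the spread of single genes did not enter. In that fit 163 of all genes passed. Hmox1 was at 704 CPM in high-fat diet library 2 and at 74.7 to 185 CPM in the other libraries. At an unadjusted p under 0.05 in edgeR there was 1 member, Sod3, higher under the high-fat diet. Of all genes 7.65% lay there, 3.70% higher and 3.95% lower. For 2 members, Sod3 and Nfe2l2, all high-fat diet values lay above all chow values. Groups without overlap made up 15.3% of all genes, 7.42% higher and 7.87% lower. The median log2 fold change was 0.13 over the 29 members and -0.01 over all genes tested, with 17 members positive and 12 negative, where 50.5% of all genes were negative. Among the 13 members with a mean of at least 50 CPM the median was 0.05, against 0.04 for all genes at that level, and 6 of 13 were negative, against 45.7%. Of these 13, 0 had an unadjusted p under 0.05 in edgeR and 1 had no overlap, where 18.7% and 24.7% of all genes at that level did.

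How large a difference could have gone unseen varied by member. The 95% interval of the log2 fold change lay within 1 log2 unit of 0 for 11 of the 29 members. For 12 members the standard error exceeded 0.5, and all of these but Hmox1 had a mean under 50 CPM. A difference of 2-fold was therefore not excluded by the intervals of the other 18.

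**Figure D1:**
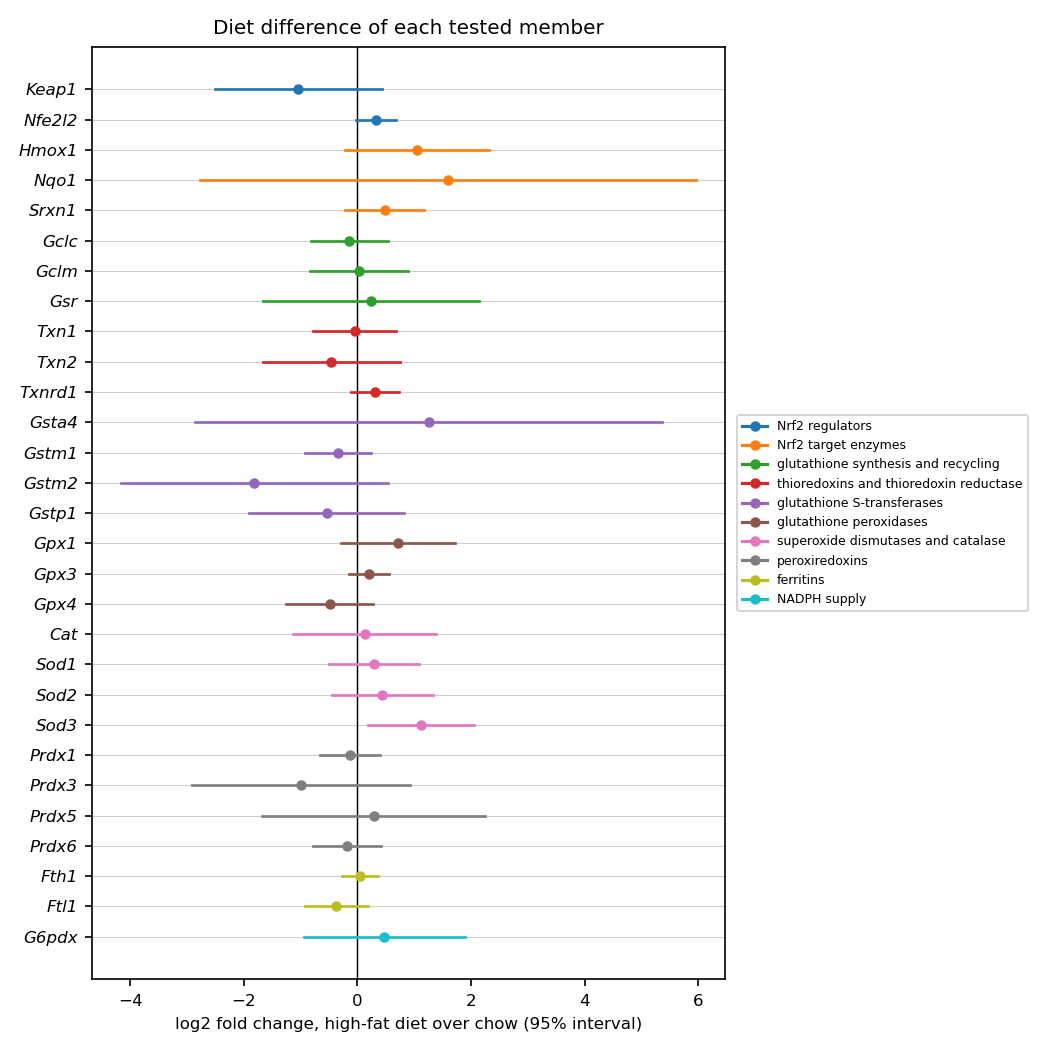
Log2 fold change of the high-fat diet over chow for each of the 29 tested members, coloured by role, with bars for the 95% interval. All intervals but that of Sod3 include 0, and those of Nqo1, Gsta4 and Gstm2 are the widest.

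Levels differed between members far more than between diets. Per kilobase of exon, Gpx3, a secreted selenium-dependent glutathione peroxidase, was the most abundant at 682 CPM per kb over the 6 libraries. It was followed by the ferritin heavy chain Fth1 (186 CPM per kb), the heme oxygenase Hmox1 (126), Nfe2l2 (109.8) and the ferritin light chain Ftl1 (86.8). Hmox1 owed its place to high-fat diet library 2, with 402 CPM per kb there and 42.7 to 106 in the other 5 libraries, and without that library its mean was 71.3, below Nfe2l2 (110.7) and Ftl1 (90.8). The same 5 led when the median coding transcript replaced the union of exons as the length. At the other end, Nqo1, the quinone reductase often used as a readout of Nrf2, stood at 0.840 CPM per kb and Gsta4 at 1.83. Keap1 stood at 2.68 CPM per kb, and Gsr, the glutathione reductase, at 2.95.

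**Figure D2:**
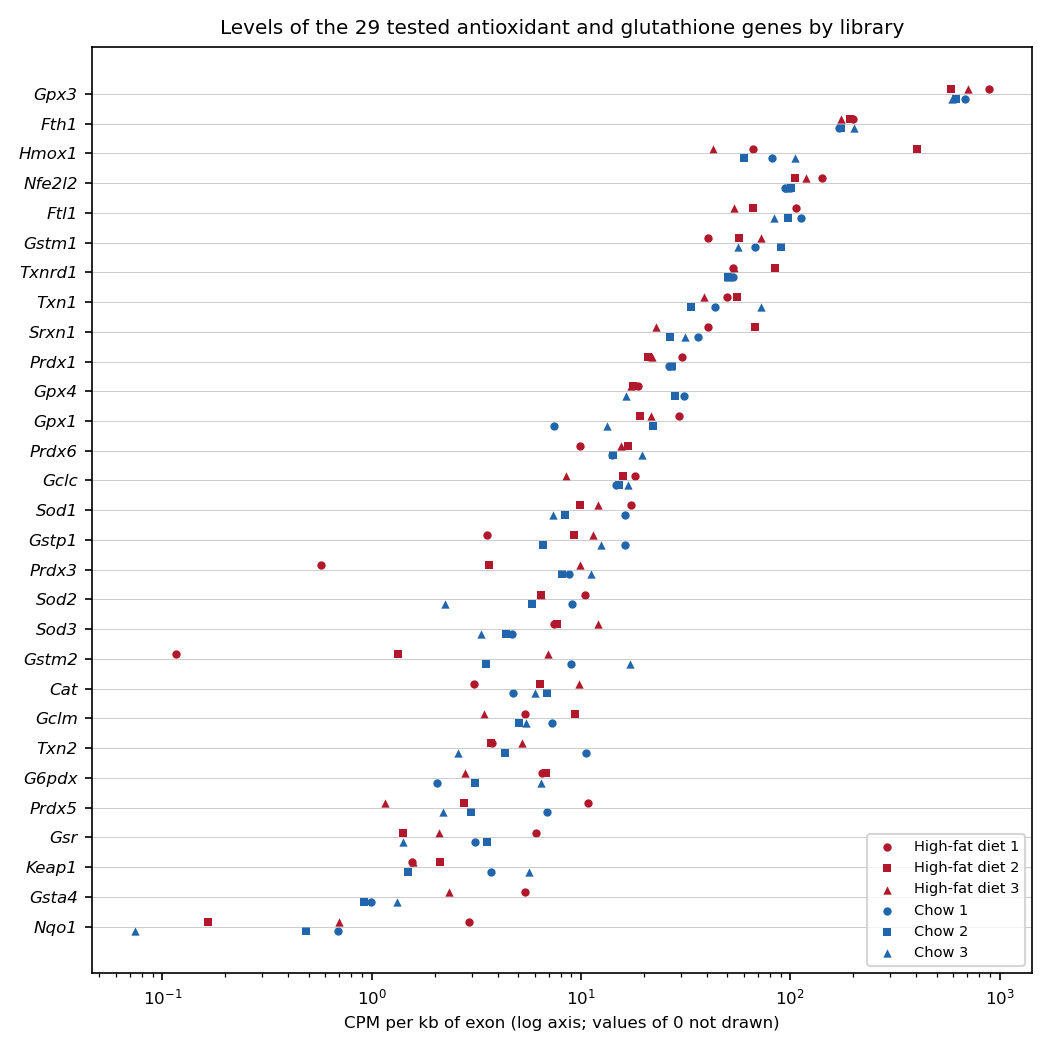
Level of each tested member in CPM per kilobase of exon on a log axis, red for high-fat diet and blue for chow libraries (circle, square and triangle for replicates 1, 2 and 3). Gpx3 and Fth1 lie above the other members in all 6 libraries but high-fat diet library 2, where Hmox1 lies above Fth1.

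Nfe2l2 (chromosome 2, 75675513 to 75704663, GRCm38) had 540.0, 399 and 453 CPM under the high-fat diet (libraries 1, 2 and 3, in this order here and below) and 358, 382 and 369 CPM under chow. Each high-fat diet library lay above each chow library, by little in library 2. The mean was 464 ± 71.3 CPM against 369.6 ± 12.1 CPM (SD, n = 3 each), a log2 fold change of 0.33 (SE 0.16, 95% interval -0.03 to 0.68, adjusted p = 0.698 in edgeR). Without high-fat diet library 1 the log2 fold change was 0.22.

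Keap1, the inhibitor (chromosome 9, 21229730 to 21239332), was far lower and less evenly measured. It had 7.35, 9.91 and 7.39 CPM under the high-fat diet and 17.4, 6.996 and 26.4 CPM under chow. Chow library 2 lay below all high-fat diet libraries, so the groups overlapped, and the log2 fold change of -1.04 (SE 0.68) did not pass (adjusted p = 0.851 in edgeR).

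Windows of 300 bases around the starts of genes (250 before and 50 after) were searched for the core of the antioxidant response element, TGACNNNGC, on both strands. RefSeq windows of GRCm38.p6 were matched for 25 of the 31 members. Hmox1, Gclc, Gsr, Gsta4, Sod3 and Prdx6 had no window and so were not searched. Of the 25, 7 (28.0%) held a match, where 14.0% of the 27025 genes with a window did. The 7 were Nfe2l2, Txnrd1, Srxn1, Sod1, G6pdx, Prdx1 and Gclm. Txnrd1 had 3 windows, of which 1 held the match. A match is a run of letters, not a measured site. The stretches below show it, in capitals, for the 6 of these genes with the smallest p in the diet comparison, each read 5′ to 3′ on the gene's strand.
Nfe2l2: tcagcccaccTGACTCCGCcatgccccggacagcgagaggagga
Txnrd1: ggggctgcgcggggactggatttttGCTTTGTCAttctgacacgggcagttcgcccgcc
Srxn1: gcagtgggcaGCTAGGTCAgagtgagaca
Sod1: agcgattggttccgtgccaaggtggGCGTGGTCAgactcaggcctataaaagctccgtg
G6pdx: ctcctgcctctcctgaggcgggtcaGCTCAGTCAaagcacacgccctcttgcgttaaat
Prdx1: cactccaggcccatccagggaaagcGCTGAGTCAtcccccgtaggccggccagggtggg
In all but Nfe2l2 the core lies on the opposite strand. The Prdx1 match also holds TGACTCA, the AP-1 site, on that strand, so these letters belong to both motifs. The Srxn1 match lies after the start site and the others before it. The stretches are chr2:75704870-75704913 (Nfe2l2), chr10:82859089-82859147 (Txnrd1), chr2:152105542-152105570 (Srxn1), chr16:90220681-90220739 (Sod1), chrX:74428904-74428962 (G6pdx) and chr4:116685441-116685499 (Prdx1).

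Among the target enzymes of Nrf2, Hmox1, which breaks down heme to biliverdin, iron and carbon monoxide (chromosome 8, 75093618 to 75100593), was set apart by 1 library. It had 116, 704 and 74.7 CPM under the high-fat diet and 142, 106 and 185 CPM under chow. Library 2 lay 3.80-fold above the highest of the other 5, while libraries 1 and 3 lay within or below the chow range. The log2 fold change was 1.05 (SE 0.59, adjusted p = 0.764 in edgeR) and without high-fat diet library 2 it was -0.60 (adjusted p = 0.789). Hmox1 is also strongly expressed by macrophages that clear red cells. The 10 macrophage and leukocyte markers summed to 35.1 CPM in high-fat diet library 2, to 12.6 to 35.1 CPM over the high-fat diet libraries and to 19.5 to 59.5 CPM over the chow libraries. The 5 erythroid markers found in the files summed to at most 1.84 CPM in any library. The part of such cells in the Hmox1 values was not tested.

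High-fat diet library 2 also held the highest value of 4 other members, each of which is known as an Nrf2 target. Txnrd1, the selenium-dependent reductase of cytosolic thioredoxin (chromosome 10, 82833951 to 82897724), had 376, 600.3 and 379.5 CPM under the high-fat diet and 378, 358 and 356 CPM under chow. Srxn1, which reactivates overoxidised peroxiredoxins (chromosome 2, 152105524 to 152111376), had 115, 191 and 64.7 CPM under the high-fat diet and 102, 75.5 and 88.4 CPM under chow. In both genes the other 2 high-fat diet libraries lay close to the chow values or on either side of them. Gclm, the modifier subunit of the enzyme that limits glutathione synthesis, reached 59.1 CPM in library 2 against 21.6 to 46.0 CPM in the other 5. G6pdx, which makes NADPH in the pentose phosphate pathway, was at 20.9 CPM there but at 20.2 CPM in high-fat diet library 1.

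The log2 fold change of Txnrd1 was 0.31 (SE 0.19) with all libraries and 0.05 without high-fat diet library 2. For Srxn1 it was 0.48 (SE 0.32) and 0.01, and for Gclm 0.03 (SE 0.40) and -0.43. High-fat diet library 2 also held the lowest value of 4 members, Gsr at 3.90 CPM, Gsta4 at 0 CPM, Prdx1 at 63.8 CPM and Gpx3 at 1068 CPM. Not every known target stood out in library 2. Nqo1 was at 0.256 CPM there and at 4.55 CPM in high-fat diet library 1, and Gclc, the catalytic partner of Gclm, was at 59.7 CPM in a range of 32.0 to 68.0 CPM. Slc7a11, the cystine carrier subunit that feeds glutathione synthesis and another known target, was at 3.33 CPM in library 2, below 4 of the other 5 libraries. This grouping by library was seen in the values and was not tested.

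**Figure D3:**
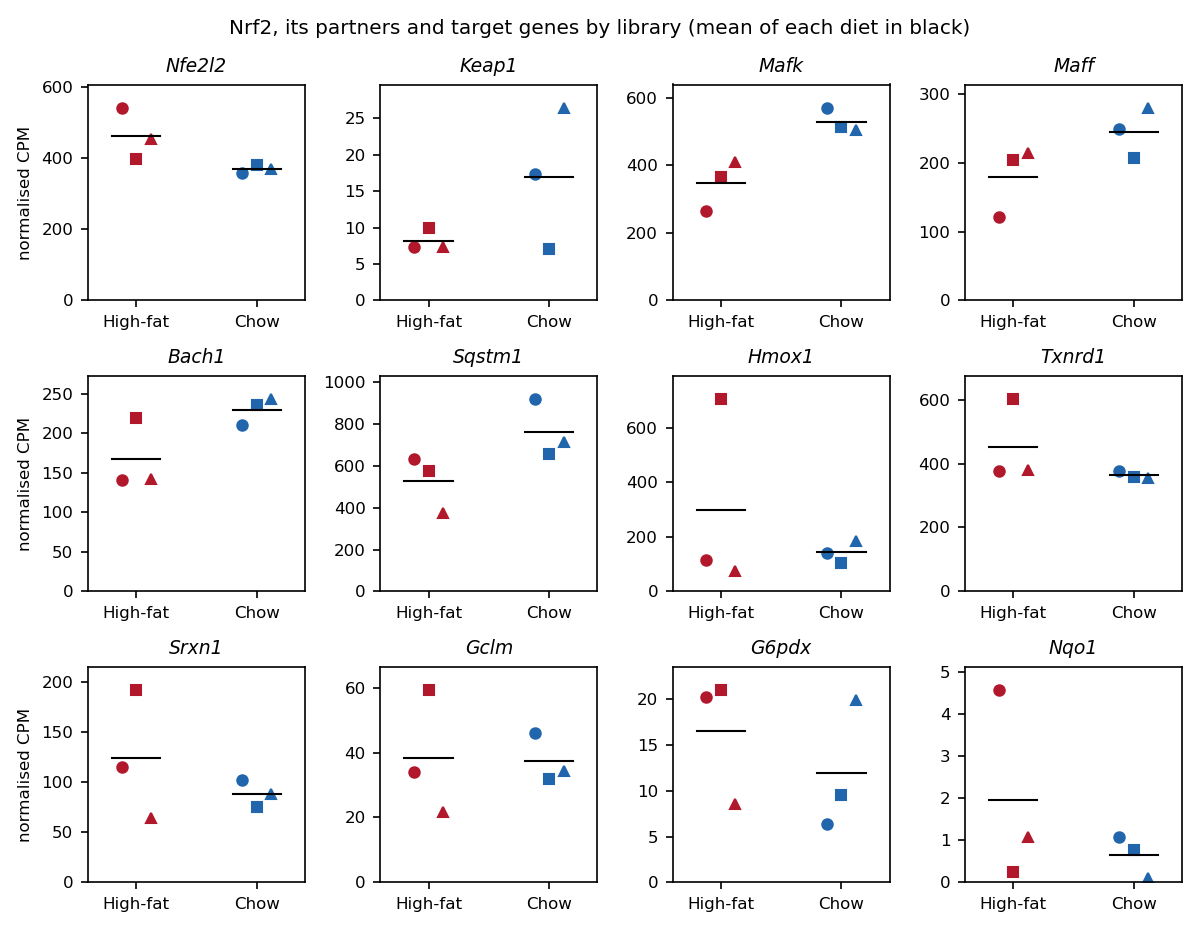
Normalised CPM per library of Nfe2l2, Keap1, 4 genes that pair or compete with Nrf2 or bind Keap1, and 6 target genes. High-fat diet is in red and chow in blue (circle, square and triangle for replicates 1, 2 and 3). A black line marks the mean of the diet. The square of the high-fat diet is the highest point for Hmox1, Txnrd1, Srxn1, Gclm and G6pdx and not for Nqo1. The genes drawn are a selection made with earlier results of these data known. Mafg, with nearly equal means, is not drawn. Gclc, Gsr, Prdx1 and Slc7a11, which are not highest in high-fat diet library 2, are not drawn either.

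No gene of glutathione synthesis and recycling passed the test. Gclc had a mean of 53.2 ± 18.9 CPM under the high-fat diet and 58.6 ± 3.87 CPM under chow (SD, n = 3 each), and the interval of its log2 fold change ran from -0.82 to 0.54. Gclm was at 38.3 ± 19.1 and 37.4 ± 7.55 CPM. Gsr, which returns oxidised glutathione to its reduced form, ran from 3.90 to 16.7 CPM over the 6 libraries with means of 8.80 and 7.43 CPM.

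The glutathione S-transferases, which couple glutathione to electrophiles, divided into abundant, scarce and undetected members. Gstm1 (chromosome 3, 108012250 to 108017973) was the most abundant, with 59.3, 84.0 and 106 CPM under the high-fat diet and 100.02, 132 and 82.5 CPM under chow. The groups overlapped, and the log2 fold change was -0.34 (SE 0.27, adjusted p = 0.920 in edgeR). Its neighbour Gstm2 had 0.195, 2.24 and 11.7 CPM under the high-fat diet and 15.01, 5.89 and 28.8 CPM under chow. High-fat diet libraries 1 and 2 lay below every chow library and library 3 did not, and the log2 fold change of -1.81 (SE 1.09) did not pass (adjusted p = 0.805 in edgeR). Gstp1 was at 12.5 ± 6.29 and 18.2 ± 7.54 CPM, and Gsta4, which conjugates the lipid peroxidation product hydroxynonenal, at 3.27 ± 3.42 and 1.36 ± 0.266 CPM. A count of 3 corresponds to 0.165 to 0.201 CPM of a library, which is the level that the zero counts of Gsta1 and Gsta2 allow, counting error only.

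Shared sequence limits several of these values. How reads with several places in the genome were counted is not given in the sources used here. Of the stretches of 75 bases in the longest coding transcript (GENCODE M21), 86.3% of those of Gsta1 and 46.9% of those of Gsta2 also occur in transcripts of other genes, chiefly each other, Gm3776 and Gm10639. The share was 69.9% for Ftl1 (with Ftl1-ps1 among others), 55.3% for Gpx4 (with Gpx4-ps2 among others), 57.7% for Gstp1 (with Gstp2 among others), 14.8% for Gstm1 and 12.2% for Sod1. It was 0 for 19 members, Nfe2l2, Keap1, Hmox1, Txnrd1, Srxn1, Gpx3 and Sod3 among them. Prdx5 lies over Trmt112, G6pdx over Ikbkg, Txnrd1 over Eid3, Gclm over Gm6061 and Gm46822, Gsr over Gm24727 and Gm17803, and Prdx1 over AV051173 in the RefSeq annotation, so without a known strand setting their reads are uncertain.

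The glutathione peroxidases reduce hydrogen peroxide and lipid peroxides at a selenocysteine. Gpx3 (chromosome 11, 54902854 to 54910387) had 1619, 1068 and 1278 CPM under the high-fat diet and 1244, 1127 and 1078 CPM under chow. High-fat diet library 2 was the lowest of all 6 and library 1 the highest, and the log2 fold change was 0.20 (SE 0.16, interval -0.15 to 0.55, adjusted p = 0.919 in edgeR). Gpx1, the cytosolic enzyme, had 42.5, 27.6 and 31.2 CPM under the high-fat diet and 10.7, 31.8 and 19.2 CPM under chow. Chow library 2 lay above 2 of the high-fat diet libraries, and the log2 fold change was 0.71 (SE 0.47, adjusted p = 0.846 in edgeR). Gpx4, which protects membranes from lipid peroxidation and so from ferroptosis, had 32.3, 30.5 and 30.0 CPM under the high-fat diet and 53.6, 48.3 and 28.3 CPM under chow. Chow library 3 was the lowest of all 6 for Gpx4, and the log2 fold change was -0.49 (SE 0.36, adjusted p = 0.891 in edgeR).

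Of the enzymes that act on superoxide and hydrogen peroxide, Sod3, the secreted copper and zinc superoxide dismutase bound to heparan sulfate of the matrix, had the smallest p of all members. Sod3 (chromosome 5, 52363804 to 52369738) had 27.6, 28.6 and 44.9 CPM under the high-fat diet and 17.6, 16.4 and 12.4 CPM under chow. Every high-fat diet library lay above every chow library. The mean was 33.7 ± 9.72 CPM against 15.5 ± 2.72 CPM (SD, n = 3 each), 2.18-fold, with a log2 fold change of 1.12 (SE 0.44, interval 0.19 to 2.06). It did not pass over all genes (unadjusted p = 0.0220, adjusted p = 0.502 in edgeR). Over the 18 alternative fits the log2 fold change of Sod3 stayed between 0.86 and 1.26 and its adjusted p between 0.322 and 0.738.

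Sod3 is also known to be made by fibroblasts and vascular cells. The 10 markers of fibro-adipogenic progenitors summed to 1359 to 1739 CPM under the high-fat diet and to 1170 to 1256 CPM under chow, without overlap, of which 9 were tested and 0 called. Serping1 was the only marker in that list whose groups did not overlap, at 609 to 667 against 400 to 438 CPM. It had the largest value of the list in every library, and without it the sums overlap. Dpt (340 ± 38.5 and 247 ± 78.7 CPM), Dcn, Col1a1, Col1a2, Lum, Ly6a and Pi16 also had higher means under the high-fat diet, with overlapping groups. Col3a1 and Pdgfra had lower means, with overlapping groups. Pdgfra, the defining surface marker, ran from 0 to 5.27 CPM under the high-fat diet and from 3.50 to 8.28 CPM under chow. Endothelial markers summed to 240.0 to 399 CPM and 272 to 364 CPM, and smooth muscle and pericyte markers to 598 to 866 CPM and 711 to 844 CPM. In each of these lists 1 marker was higher without overlap, where 15.3% of all genes tested did not overlap, 7.42% higher. Kdr was at 23.8 to 39.3 against 7.29 to 13.7 CPM (unadjusted p = 0.0156, adjusted p = 0.442 in edgeR). Tagln was at 49.1 to 92.7 against 20.2 to 47.5 CPM (unadjusted p = 0.0365, adjusted p = 0.605 in edgeR). The other markers of these lists overlapped. Means of Pecam1, Cdh5, Tek, Cldn5, Myh11, Rgs5, Cspg4, Kcnj8, Notch3 and Cnn1 were lower under the high-fat diet. Those of Tie1, Egfl7, Esam, Emcn, Flt1 and Acta2 were higher. The part of these cells in the Sod3 values was not tested, and in sorted bulk RNA fewer cells of a type cannot be told apart from less RNA per cell.

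The other 3 enzymes of this group did not pass the test, and their groups overlapped. Sod1, the cytosolic dismutase, was at 51.9 ± 15.03 CPM under the high-fat diet and 42.3 ± 19.0 CPM under chow. Sod2, the mitochondrial manganese enzyme, was at 77.7 ± 23.4 and 57.2 ± 34.3 CPM, under chow library 3 alone at 22.4 CPM. Cat, the peroxisomal catalase, was at 16.8 ± 8.78 and 15.4 ± 2.84 CPM. All 4 members of the group had positive log2 fold changes, from 0.13 for Cat to 1.12 for Sod3, and without high-fat diet library 1 and chow library 3 those of Sod1 and Sod2 were -0.15 and -0.21. That of Cat was -0.31 without high-fat diet library 3.

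The peroxiredoxins reduce peroxides through cysteines, and thioredoxin recycles most of them. Prdx1, the abundant cytosolic form, was at 74.3 ± 15.8 CPM under the high-fat diet and 81.4 ± 1.39 CPM under chow, and Prdx6, which uses glutathione and also has phospholipase activity, at 67.5 ± 17.6 and 76.5 ± 14.8 CPM. Both intervals lay within 1 log2 unit of 0. The mitochondrial form Prdx3 had 0.845, 5.37 and 14.6 CPM under the high-fat diet and 13.0, 11.95 and 16.5 CPM under chow. Its low values were in high-fat diet libraries 1 and 2, as with Gstm2, and the log2 fold change of -0.99 (SE 0.89) went to -0.46 without high-fat diet library 1. Prdx5 ran from 2.48 to 23.2 CPM within the high-fat diet group and from 4.71 to 14.8 CPM within chow, with the highest value of each diet in library 1.

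Neither thioredoxin passed the test, and both were uneven between libraries. Txn1, the cytosolic thioredoxin, was at 50.6 ± 9.22 CPM under the high-fat diet and 52.4 ± 21.0 CPM under chow, a log2 fold change of -0.05 (SE 0.34). Txn2, its mitochondrial counterpart, was at 17.8 ± 3.61 and 24.5 ± 17.5 CPM, under chow values from 10.9 to 44.3 CPM.

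The ferritins store iron and so withhold it from the reactions that make hydroxyl radicals. Fth1 (chromosome 19, 9980600 to 9985111), the ferroxidase subunit, had 690.2, 671 and 603 CPM under the high-fat diet and 592, 606 and 703 CPM under chow. It had the smallest standard error of all members, with a log2 fold change of 0.05 (SE 0.15, interval -0.27 to 0.37, adjusted p = 1.00 in edgeR). Ftl1, the light chain (chromosome 7, 45457944 to 45459886), had 143, 89.3 and 72.5 CPM under the high-fat diet and 151, 130.4 and 112 CPM under chow. High-fat diet libraries 2 and 3 lay below all chow libraries and library 1 did not, and the log2 fold change was -0.37 (SE 0.26, adjusted p = 0.876 in edgeR).

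Across all members the 6 libraries took turns at the extremes. High-fat diet library 1 held the highest value of 11 of the 29 members and the lowest of 6, and chow library 3 the highest of 6 and the lowest of 7. Chow library 2 held the highest value of 1 member and the lowest of 2. The median deviation of the members from their own means ran from -0.08 in chow library 2 to 0.20 in high-fat diet library 1 on the log2 scale. In high-fat diet library 1 it was 0.01 over all genes tested. At means of 50 CPM or more it was 0.20 for the members and 0.09 for all genes in that library.

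**Figure D4:**
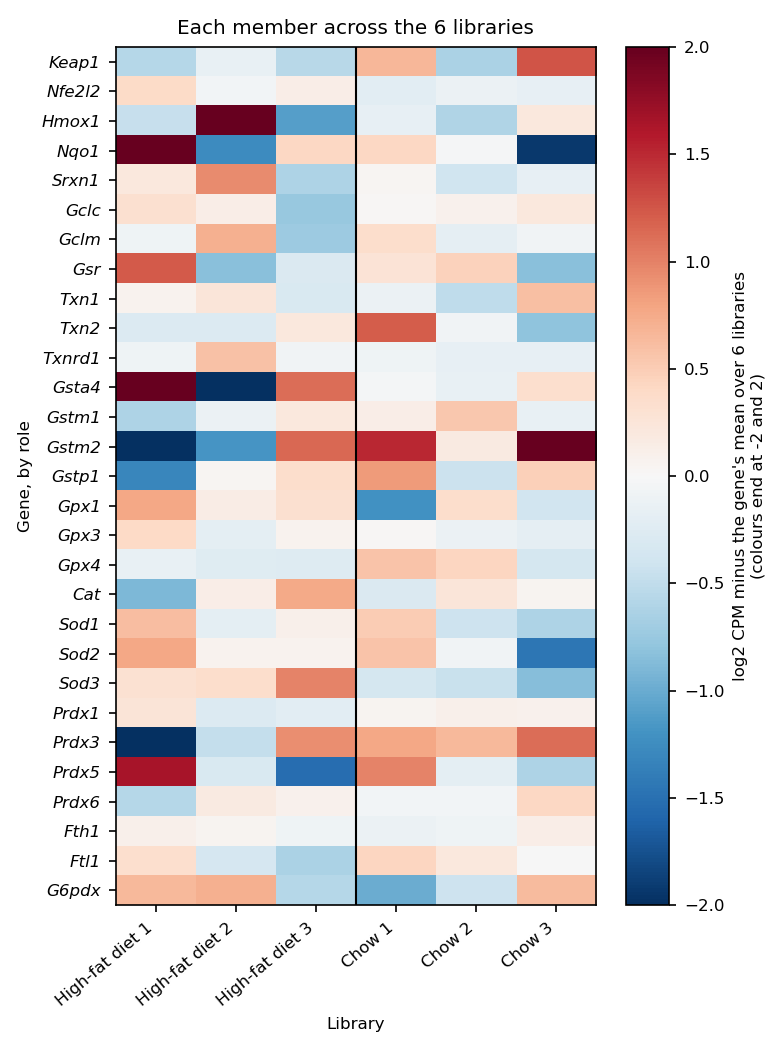
Deviation of each member in each library from its mean log2 CPM over the 6 libraries, rows ordered by role and a line between the diets. Rows are mixed in colour within each diet; Sod3 and Nfe2l2 are the members whose 3 high-fat diet cells all lie above the chow cells.

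A further 92 genes of the same pathways were read for comparison, among them other transferases, glutaredoxins, methionine sulfoxide reductases, NADPH and iron genes and the partners of Nrf2. Of these, 3 had no count in any library and 77 were tested. In edgeR 0 of 77 passed over all genes, with 6 at an unadjusted p under 0.05, 1 higher and 5 lower, a share near that of all genes. With limma-voom 0 passed, where 99 of all genes did. With DESeq2 1 passed, Mafk, where 198 of all genes did, against 34 in edgeR. The median log2 fold change was -0.07. The groups did not overlap for 10 of 77, 5 in each direction, where 15.3% of all genes did not.

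The 6 with the smallest p included 3 genes that pair with Nrf2, compete with it or bind Keap1. Mafk, a small Maf protein that pairs with Nrf2 or with the repressor Bach1, had 264, 364 and 409 CPM under the high-fat diet and 568, 512 and 503 CPM under chow. All its high-fat diet values lay below the chow values (log2 fold change -0.61, SE 0.18, adjusted p = 0.299 in edgeR and 0.0476 in DESeq2). Sqstm1, the autophagy receptor p62 that can bind Keap1, had 632, 578 and 375 CPM under the high-fat diet and 917, 658 and 713 CPM under chow, again without overlap (-0.53, SE 0.20, adjusted p = 0.493). Bach1, which competes with Nrf2 at response elements and is released by heme, had 141, 219.6 and 142 CPM under the high-fat diet and 210.5, 236 and 243 CPM under chow, where high-fat diet library 2 reached into the chow range (-0.45, SE 0.21, adjusted p = 0.647). Maff, another small Maf named after its values were seen, was at 180.1 ± 50.8 and 246 ± 36.4 CPM (-0.45, SE 0.23, adjusted p = 0.701 in edgeR). Its groups overlapped, with a high-fat diet maximum of 214.5 CPM and a chow minimum of 207.1 CPM. Mafg, the remaining small Maf, was at 38.3 ± 7.09 and 38.5 ± 9.03 CPM (-0.0087, SE 0.35), with overlapping groups.

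The other 3 were an iron carrier, a hydrolase and a selenoprotein. Slc11a2, the iron importer DMT1, had 93.3, 85.2 and 94.1 CPM under the high-fat diet and 50.3, 55.5 and 47.2 CPM under chow, without overlap (log2 fold change 0.83, SE 0.24, adjusted p = 0.287 in edgeR). Ephx1, the microsomal epoxide hydrolase, had 36.0, 24.7 and 23.9 CPM under the high-fat diet and 49.7, 56.5 and 42.9 CPM under chow (-0.82, SE 0.34, adjusted p = 0.570). Selenoh, a nucleolar selenoprotein, was at 0, 0.384 and 0 CPM under the high-fat diet and at 4.27, 2.33 and 8.44 CPM under chow (adjusted p = 0.569). None of these 3 passed over all genes.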

How the data were processed

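Deposited values were raw counts of reads per Entrez gene ID, 1 file per library, with no normalization by the authors. Bowtie2, featureCounts and GRCm38/mm10 are named in the submitters' processing notes; versions, strand setting and annotation are not given in the sources used here. Symbols came from the RefSeq gene table of GRCm38.p6 (25275 of 27179 IDs; 31 of 31 members), and exon-union lengths from GENCODE M21 (89.8% of tested genes).

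The counts were fitted with edgeR 4.0.16 in R 4.3.3 (filterByExpr, minimum count 10; TMM; two-sided quasi-likelihood F test; diet as the only factor; Benjamini-Hochberg over 13202 genes). SE is the absolute log2 fold change over the square root of F, and intervals are 95%. The method was checked on simulated counts. Alternatives were other scalings and filters, DESeq2 1.42.0, limma 3.58.1 (voom), an adjusted p of 0.1, a replicate block, a transcript length offset and left-out libraries. Members, companion genes, markers and alternatives were chosen with earlier results of these data known. Values per library are given for the 12 members with the smallest p, Nfe2l2, Keap1 and the 5 highest per length. Single values of Prdx3, Gclm, G6pdx, Nqo1, Gclc, Slc7a11, Maff, Mafg and single markers were picked after they were seen. Of 92 companion genes the 6 with the smallest p are named.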

Additional observations from a re-analysis of the deposited data

How the results depend on the processing

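The number of members called was 1 (Hmox1) with no filter on low counts and 0 in every other alternative. That of companion genes was 1 (Mafk) with DESeq2 and 0 otherwise. Over all genes, 34 calls became 163 with no filter, 198 with DESeq2, 99 with limma-voom, 109 with quality weights, 59 with the replicate block and length offset together, 9 to 44 when a library was left out (9 without high-fat diet library 2) and 1 without high-fat diet library 1 and chow library 3. The median log2 fold change of the members, 0.13, was -0.013 with limma-voom, 0.011 with the replicate block, -0.000415 with block and length offset, 0.014 to 0.23 with a library left out and -0.13 without both libraries. Replicate numbers did not pair the libraries: same-numbered deviations correlated at 0.02, 0.03 and -0.03, 2 of 3 high-fat diet libraries correlated best with their own number, and the replicate block gave 45 calls.

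Of 29 members, 15 kept the sign of their log2 fold change in all 18 alternative fits, Sod3 and Nfe2l2 among them. The adjusted p of 0.1 is a threshold and not among these fits. Sign changes with limma-voom were Gclm -0.10, Gsta4 -0.62 and Prdx5 -0.21, and with quality weights Gsr -0.42, Gsta4 -1.64, Prdx5 -0.51 and Txn1 0.17. With the replicate block they were Gclm -0.075, Cat -0.0073, Prdx5 -0.13 and Txn1 0.011, and with block and length offset Gclm -0.063, Gsta4 -0.0097, Cat -0.000415, Prdx5 -0.12 and Txn1 0.045. Without both libraries they were Gpx3 -0.0060, Nqo1 -0.44, Gsr -0.92, Sod1 -0.15, Sod2 -0.21, Prdx5 -1.33, Prdx6 0.20 and Txn1 0.30. With a library left out, values ran from -0.61 to 0.59 for Gsr, -1.03 to 0.92 for Prdx5, -0.33 to 0.031 for Prdx6, -0.60 to 1.51 for Hmox1, -0.43 to 0.32 for Gclm, -0.34 to 0.13 for Gclc, -0.31 to 0.47 for Cat, -0.27 to 0.32 for Txn1 and -0.81 to 0.29 for Txn2. The cause of these changes was not tested. With 3 libraries a diet, the common biological coefficient of variation was 82.6% over all genes tested, a dispersion (its square) of 0.682. The median dispersion of genes over 50 CPM was 0.0557. Of the 12 members with a standard error over 0.5, all but Hmox1 had a mean under 50 CPM.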
